A study of Mus musculus with 6 samples.

Results

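The receptors described here are 10 checkpoint and CD28 family genes: Ctla4, Cd28, Icos, Pdcd1 (PD-1), Btla, Tigit, Cd96, Cd226 (DNAM-1), Lag3 and Havcr2 (TIM-3). They were chosen by name, by matching the Ensembl identifiers of the count tables to these symbols in the GENCODE M21 annotation, and are 10 of the 54446 genes counted. Total RNA was measured in regulatory T (Treg) cells, sorted as live CD45+ CD4+ Foxp3-GFP+ cells out of subcutaneous tumours of B16F10, a mouse melanoma cell line. The 3 libraries labelled Ythdf2 cKO carry the genotype Foxp3CreYthdf2fl/fl, with 2 floxed Ythdf2 alleles, and the 3 control libraries, whose titles call them WT, carry Foxp3CreYthdf2fl/+, with 1. Mice of both groups therefore carry the Cre recombinase, driven by Foxp3, the gene that defines Treg cells, and the controls are heterozygous for the floxed allele, not free of it. Cage 2 held Ythdf2 cKO replicates 2 and 3 and control replicate 3, and cage 1 held Ythdf2 cKO replicate 1 and control replicates 1 and 2. Neither the age of the mice nor the time from tumour injection to sorting is given in the sources used here, and the labels do not tie the libraries to separate animals, so p-values cover the spread between these libraries alone, part of which may be technical.

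T cells need a second signal beside that of the T cell receptor, and the CD28 family supplies or withholds it: Cd28 and Icos are costimulatory receptors, while Ctla4, Pdcd1 and Btla restrain the cell that carries them. In Treg cells Ctla4 is also a tool of suppression, since it captures the ligands Cd80 and Cd86 and removes them from antigen-presenting cells. Tigit, Cd96 and Cd226 form a second set that competes for Pvr (CD155) and related nectins, with Tigit inhibitory and Cd226 activating, and Lag3 and Havcr2 are further inhibitory receptors found on Treg cells in tumours. Ythdf2 is an m6A reader: its protein recognises N6-methyladenosine (m6A) on mRNAs and speeds up their breakdown. The design asks what its loss from Treg cells does to gene expression in the tumour.

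Several facts of the libraries touch every value below. They held 5602053 to 9960861 gene counts in the Ythdf2 cKO group and 8923124 to 13602069 in the controls. Ythdf2 itself was at 90.1, 104 and 104 CPM (gene counts scaled to TMM-adjusted library sizes) in the cKO-labelled libraries, against 124, 102 and 93.1 CPM in the controls, so the label could not be checked from these counts and groups are given as labelled. The floxed exons are not stated in the labels, and a deletion of part of the gene need not show in a count over all its exons. The Treg, T cell and leukocyte markers Foxp3, Cd4, Il2ra, Ikzf2, Cd3d, Cd3e, Cd3g and Ptprc were all present in every library. Ythdf2 cKO replicate 1 and control replicate 3 stood at the ends of the first principal component (59.4% of the variance), and control replicate 3 had a TMM factor of 0.713. Transcripts of 13 melanoma genes summed to 2488 and 3392 CPM in Ythdf2 cKO replicates 2 and 3 and to 5127 CPM in control replicate 3, the libraries of cage 2. In cage 1 the same sum was 64.7 CPM in Ythdf2 cKO replicate 1 and 392 and 513 CPM in control replicates 1 and 2. Of 6 CD8 T and NK cell markers, Cd8a and Cd8b1 had reads in every library. Cd8b1 was at 23.1, 5.89 and 7.58 CPM in Ythdf2 cKO replicates 1, 2 and 3, against 11.6, 9.27 and 5.36 CPM in the controls. Cd8a was at 1.80, 1.64 and 0.73 CPM in the cKO-labelled libraries, against 0.79, 0.27 and 5.84 CPM in the controls. Cd8b1 was thus highest in Ythdf2 cKO replicate 1 and Cd8a in control replicate 3. Klrb1c was at 0 in every library and Ncr1 in every library but Ythdf2 cKO replicate 1. The sum of the 6 markers ran from 7.53 to 25.9 CPM in the Ythdf2 cKO group and from 9.74 to 12.6 CPM in the controls. The sum of 7 B cell markers ran from 12.7 to 20.5 CPM in the Ythdf2 cKO group and from 5.96 to 14.4 CPM in the controls. In RNA from bulk samples, fewer cells of a type and less RNA per cell cannot be told apart.

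Ctla4 led the receptors in each of the 6 libraries. Levels were compared between genes as RPKM, the CPM divided by the merged exon length in kilobases, since a longer transcript collects more reads. Ctla4 averaged 584 ± 119 RPKM (SD over the 6 libraries), which placed it at percentile 99.7 of the genes tested, and it held 50.0% ± 2.92 of the summed RPKM of the receptors in the Ythdf2 cKO group and 49.9% ± 3.18 in the controls (SD, n = 3 each). Tigit at 182 ± 39.5 RPKM and Icos at 172 ± 40.7 RPKM came next and could not be ordered, with Tigit above Icos in 3 of 6 libraries. The place of Tigit depends on its annotated exon length, 919 bases, the shortest of the 10 (Icos has 3430). In CPM Tigit lay below both Icos and Cd28 in every library. Pdcd1 at 92.5 ± 30.6 RPKM and Cd28 at 48.1 ± 9.45 RPKM followed, and in all 6 libraries Icos lay above Pdcd1, Pdcd1 above Cd28, and Cd28 above Lag3. Lag3 (24.9 ± 6.94 RPKM), Havcr2 (22.7 ± 6.75 RPKM) and Cd96 (20.3 ± 8.27 RPKM) lay within their own spread, with Lag3 above Havcr2 in 4 libraries and Havcr2 above Cd96 in 5. Cd226 (11.2 ± 4.27 RPKM) and Btla (10.2 ± 3.48 RPKM) were lowest, at percentiles 73.4 and 71.0, and Cd226 exceeded Btla in 4 of 6 libraries. The read counts behind these levels ran from 127 for Cd96 in control replicate 3 to 21761 for Ctla4 in control replicate 2.

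**Figure D1:**
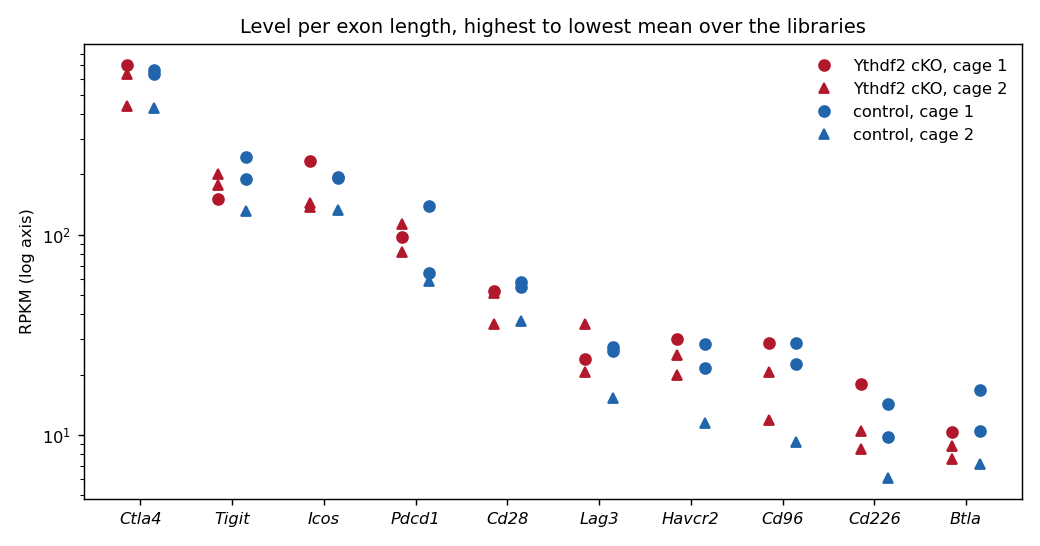
Level of each receptor per exon length (RPKM, log axis) in the 3 libraries labelled Ythdf2 cKO (left in each column, red) and the 3 controls (right, blue), with circles for cage 1 and triangles for cage 2. Ctla4, at a mean of 584 RPKM, lies above every other receptor in every library, and Tigit and Icos overlap.

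The receptor genes lie in a few places of the mm10 genome, and none of the 10 shares an exon with another annotated gene. Cd28 (chromosome 1, 60716800 to 60773359), Ctla4 (60887000 to 60915832) and Icos (60977927 to 61000320) are neighbours on the plus strand, with 113641 bases between Cd28 and Ctla4 and 62095 bases between Ctla4 and Icos, and no other protein-coding gene in these gaps. Pdcd1 (94038305 to 94052553, minus strand) lies farther along the same chromosome. Chromosome 16 carries Tigit (43648867 to 43664146, minus), Btla (45224315 to 45257670, plus) and Cd96 (46035657 to 46120251, minus). Lag3 (chromosome 6, 124904361 to 124911705, minus) sits between Cd4 and Ptms, and Havcr2 is on chromosome 11 (46454935 to 46481255, plus).

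Since the Ythdf2 protein acts on methylated mRNAs, the transcripts were searched for GGACT, the DNA spelling of the most usual form of the m6A motif. The methylation itself was not measured here, and a match is only a run of letters. Ctla4 held 5 copies in its longest coding transcript, or 2.59 per kilobase (percentile 96.0 of 11404 tested genes, whose median is 1.04), and Lag3 held 5, or 2.50 per kilobase (percentile 95.5). Icos held 1 copy, or 0.31 per kilobase (percentile 9.79), 37 bases past its last coding base. Such a motif is common, with at least 1 copy in 92.7% of the tested genes. One site is shown from the most and the least dense of the CD28 family (Ctla4 and Icos), from Lag3, and from Havcr2, where it lies 12 bases past the last coding base. Each is 25 bases of the transcript, 5′ to 3′, with the motif in capitals.
Ctla4, coding part of exon 2, plus strand, chr1:60912676-60912700: tgttgacacgGGACTgtacctctgc
Icos, 3′ untranslated part of exon 5, plus strand, chr1:60997738-60997762: ggaaacgcatGGACTagttcccctg
Lag3, coding part of exon 5, minus strand, chr6:124908527-124908551: attgccaagtGGACTcctcctggag
Havcr2, 3′ untranslated part of exon 7, plus strand, chr11:46479445-46479469: gaccgcctctGGACTgccactttta

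Promoter sequence (RefSeq, GRCm38.p6, 250 bases before to 50 after the start site) was at hand for 6 of the 10 receptors: Ctla4, Pdcd1, Btla, Tigit, Cd96 and Havcr2. Each was searched on both strands for 7 motifs. The core of sites for NFAT, the factor that calcium signalling activates in T cells, is spelled GGAAA and was found in Ctla4, Pdcd1, Tigit and Cd96, or 4 of the 6, and in 61.3% of all 32851 promoters. The AP-1 site TGANTCA was found in Havcr2 and in 7.81% of all promoters. A degenerate NF-kB site (GGGA, any 4 bases and CC) was found in Cd96 and in 20.7% of all. The site of GATA factors, AGATAA, was found in Tigit and in 11.2% of all. The letters TATAAA, the spelling of a TATA box, were found in Ctla4 and Cd96 and in 13.6% of all. The search did not ask whether a match lies where such a box acts. Of the remaining motifs, the forkhead site GTAAACA is held by 3.65% of all promoters and was in none of the 6. The ETS site CCGGAA is held by 14.9% and was in none of the 6 either. The promoters of Ctla4, the most abundant receptor, and of Cd96, the receptor that differed most between the cages and held most matches, are shown 5′ to 3′ on the strand of the gene, with every match in capitals. The RefSeq start of Ctla4 lies inside the longer gene span of GENCODE given above. In Ctla4 the capitals are the NFAT core, read on the opposite strand, starting 144 bases before the start site, and the letters TATAAA 41 bases into the transcript. In Cd96 they are the NFAT core at 5 places, on either strand, the letters TATAAA 214 bases before the start, and a match to the NF-kB site that overlaps no other, 8 bases into the transcript.
Ctla4, chr1:60908775-60909074, plus strand: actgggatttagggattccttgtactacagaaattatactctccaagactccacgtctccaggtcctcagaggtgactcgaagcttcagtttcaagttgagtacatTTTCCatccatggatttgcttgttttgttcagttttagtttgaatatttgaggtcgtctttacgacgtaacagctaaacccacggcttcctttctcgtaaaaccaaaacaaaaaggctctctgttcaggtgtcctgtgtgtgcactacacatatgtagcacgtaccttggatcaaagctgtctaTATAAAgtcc
Cd96, chr16:46120199-46120498, minus strand: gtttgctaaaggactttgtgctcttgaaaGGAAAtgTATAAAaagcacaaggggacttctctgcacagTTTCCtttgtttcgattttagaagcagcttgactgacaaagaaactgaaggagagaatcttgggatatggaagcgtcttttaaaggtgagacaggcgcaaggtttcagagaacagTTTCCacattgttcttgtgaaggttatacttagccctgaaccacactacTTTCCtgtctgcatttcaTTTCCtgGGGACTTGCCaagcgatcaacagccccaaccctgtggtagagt

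No receptor of the CD28 family passed the test between the libraries labelled Ythdf2 cKO and the controls. Ctla4 was at 1646, 1475 and 1024 CPM in Ythdf2 cKO replicates 1, 2 and 3, against 1546, 1473 and 998 CPM in control replicates 1, 2 and 3. The lowest value of each group came from cage 2, and the groups overlapped almost fully, at means of 1382 ± 321 CPM for Ythdf2 cKO and 1339 ± 297 CPM for control (SD, n = 3 each). Its log2 fold change was 0.045 (standard error, SE, 0.26, and 95% interval -0.56 to 0.65), with an adjusted p of 1 by the quasi-likelihood test of edgeR. Cd28, which binds the same ligands as Ctla4 but activates the cell, was at 319, 314 and 218 CPM in the cKO-labelled libraries, against 336, 354 and 226 CPM in the controls. Again 1 library of cage 2 in each group was lowest, and the log2 fold change was -0.11 (SE 0.23). Icos, the receptor of Icosl, was at 803, 491 and 473 CPM in the cKO-labelled libraries, against 668, 657 and 455 CPM in the controls. The Ythdf2 cKO library of cage 1 was the highest of all 6 and the 3 libraries of cage 2 the lowest, and the log2 fold change between the groups was -0.011 (SE 0.26).

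Pdcd1, the receptor of the ligands Cd274 (PD-L1) and Pdcd1lg2, was at 189, 218 and 158 CPM in the cKO-labelled libraries, against 124, 268 and 113 CPM in the controls. The 3 Ythdf2 cKO values lay inside the range of the controls, which was set by control replicate 2 at the top. The log2 fold change was 0.16 (SE 0.34), and 0.66 without control replicate 2. Btla, which binds Tnfrsf14 (HVEM), was at 35.2, 29.7 and 25.7 CPM in the cKO-labelled libraries, against 56.7, 35.6 and 24.3 CPM in the controls. Its log2 fold change of -0.37 (SE 0.32, 95% interval from -1.12 to 0.39) was the lowest of the 10, and it was 0.0045 without control replicate 1, which held the highest value.

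None of the 3 nectin-binding receptors passed the test either. Tigit was at 138, 184 and 163 CPM in the cKO-labelled libraries, against 174, 224 and 120 CPM in the controls, with a log2 fold change of -0.097 (SE 0.24). The Ythdf2 cKO values lay inside the range of the controls. Cd96 was at 62.6, 44.8 and 25.8 CPM in the cKO-labelled libraries, against 62.8, 49.4 and 20.0 CPM in the controls. Both groups spanned much of the range of the 6 libraries, with cage 2 at the low end, and the log2 fold change was 0.0036 with an SE of 0.46, the widest of the 10. Cd226 (chromosome 18, 89176967 to 89272229, plus strand) was at 87.6, 51.0 and 41.6 CPM in the cKO-labelled libraries, against 47.8, 70.0 and 29.7 CPM in the controls. The highest value of the Ythdf2 cKO group came from replicate 1, and the log2 fold change of 0.28 (SE 0.38) was -0.095 without it.

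Of the remaining pair, Lag3, a CD4-like receptor of MHC class II, was at 50.6, 75.8 and 43.4 CPM in the cKO-labelled libraries, against 57.6, 55.4 and 32.3 CPM in the controls. Replicate 2 of the Ythdf2 cKO group stood highest, and the log2 fold change was 0.22 (SE 0.30), or -0.055 without that library. Havcr2, whose ligands include Lgals9 and Ceacam1, was at 81.7, 68.3 and 53.9 CPM in the cKO-labelled libraries, against 58.6, 77.3 and 31.2 CPM in the controls. The lowest control, replicate 3, lay below every Ythdf2 cKO library while replicate 2 lay above 2 of them, and the log2 fold change was 0.28 (SE 0.33).

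**Figure D2:**
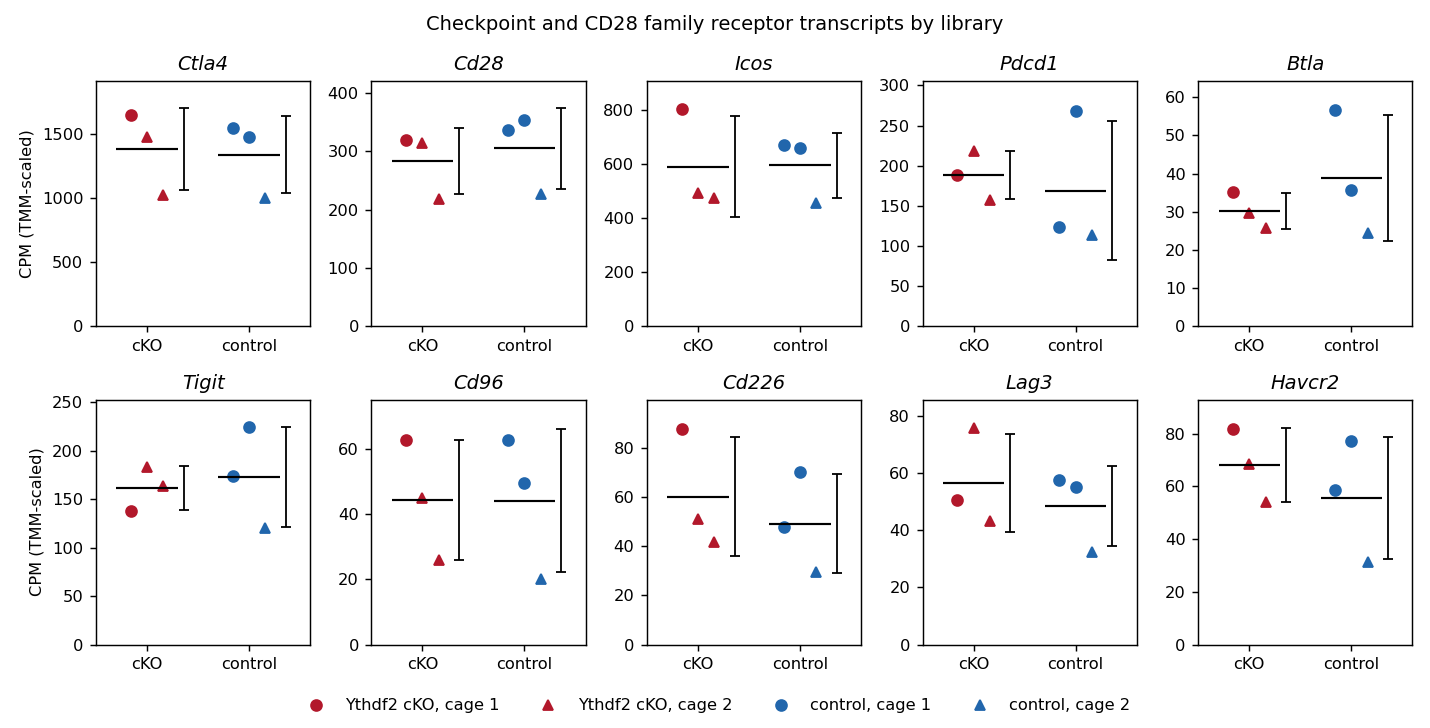
CPM (scaled to TMM-adjusted library sizes, linear axes from 0) of each receptor in the libraries labelled Ythdf2 cKO (left, red) and the controls (right, blue), with circles for cage 1 and triangles for cage 2, a bar at the group mean and an error bar of 1 SD (n = 3). The groups overlap in all 10 panels, and in each panel the lowest of the 6 points is a triangle.

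Across the list, 0 of 10 receptors were called at an adjusted p under 0.05 (edgeR adjusted p = 1 for each), as were 0% of the 13172 genes tested. At an unadjusted p under 0.05 the counts were 0 of 10 receptors and 1.62% of all genes (213), and DESeq2 and limma-voom also called 0 of the 10. The groups overlapped for all 10 receptors, where 7.62% of all genes had groups that did not overlap. Of the 10 fold changes 6 were above 0 and 4 below, with a median log2 of 0.025, against -0.0049 for all genes. The 95% intervals reached as low as -1.12 (Btla) and as high as 1.17 (Cd226). In simulated counts this comparison recovered 0% of 200 genes with a 2-fold change, so a lack of calls does not show equal levels. The receptors together summed to 2864 ± 597 CPM in the cKO-labelled libraries and 2815 ± 665 CPM in the controls (SD, n = 3 each). Without the libraries at the ends of the first principal component, Ythdf2 cKO replicate 1 and control replicate 3, 460 genes were called and still 0 of 10 receptors, but the group then followed the cages exactly, so the genotype and the cage cannot be told apart in that fit.

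Compared with controls of their own cage, no receptor passed the test either. With cage as a term beside the group, 0 of 10 receptors and 0% of all genes were called, 8 of the 10 fold changes lay above 0, and their median log2 was 0.28, against -0.041 for all genes. At an unadjusted p under 0.05 there were 2 of 10 receptors, where the share of all genes was 10.2%. These were Cd226, with a log2 fold change of 0.61 (SE 0.20, edgeR adjusted p = 0.45), and Havcr2, with 0.61 (SE 0.22, edgeR adjusted p = 0.45). For Ctla4, Icos, Cd226 and Havcr2 each library labelled Ythdf2 cKO lay above each control of its own cage, as it did for 14.5% of all genes. The log2 differences within cage 1 and within cage 2 were 0.60 and 0.63 for Cd226 and 0.28 and 0.95 for Havcr2. They were 0.13 and 0.30 for Ctla4 and 0.28 and 0.082 for Icos. In cage 1 the Ythdf2 cKO side of each such difference was the single library with the lowest depth and the lowest melanoma sum, and in cage 2 the control side was the single library with the highest melanoma sum. The part of these library differences in the result was not tested.

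**Figure D3:**
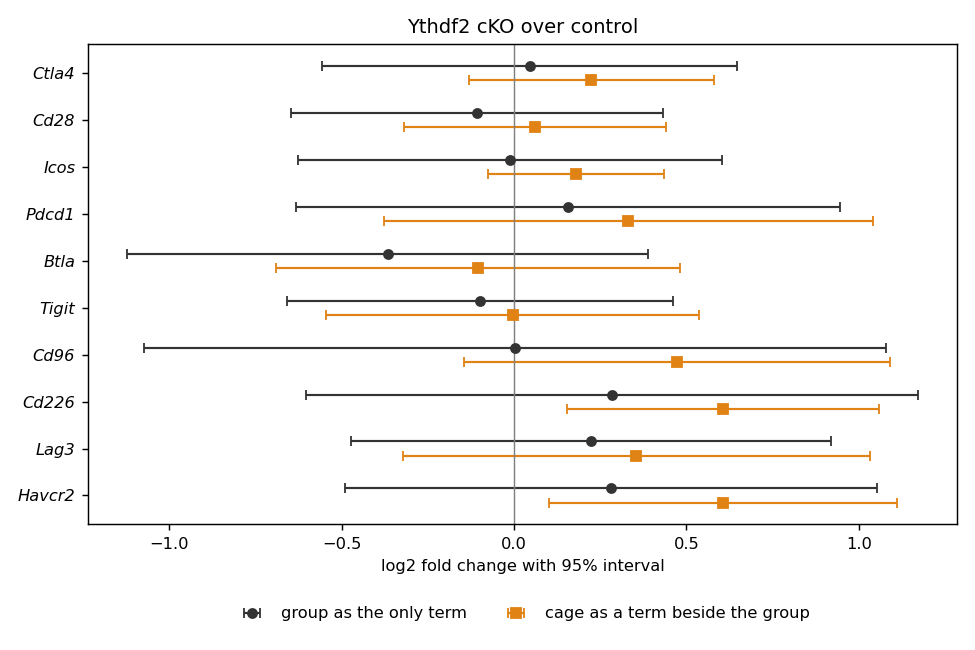
Log2 fold change of each receptor in the libraries labelled Ythdf2 cKO over control, with its 95% interval, from a fit on the group alone (circles) and with cage as a term beside it (squares). All 10 intervals of the first fit cross 0, and with cage as a term those of Cd226 and Havcr2 lie above 0, though neither passes after adjustment over all genes.

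Tigit, Lag3 and Btla lay on opposite sides in the cages. In cage 1 the library labelled Ythdf2 cKO was below both controls and in cage 2 both Ythdf2 cKO libraries were above the control, an arrangement found for 13.6% of all genes. The log2 differences within cage 1 and within cage 2 were -0.52 and 0.52 for Tigit, -0.16 and 0.82 for Lag3 and -0.35 and 0.19 for Btla. In the test of the interaction of genotype and cage 0 of 10 receptors were called, as were 0.0456% of all genes (6 genes). Tigit came closest, at an interaction of 1.06 on the log2 scale (SE 0.30, edgeR adjusted p = 0.24), and was the only receptor of the 10 at an unadjusted p under 0.05, which 14.3% of all genes reached.

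More receptors were called between the cages than between the genotypes. Of the 10, 3 were called lower in cage 2 than in cage 1 in the fit that also held the group (Icos, Cd96 and Cd226), where 11.5% of all genes were called and 3.68% were called lower. Icos was at 491, 473 and 455 CPM in cage 2, against 803, 668 and 657 CPM in cage 1. The cages did not overlap, and the means were 473 ± 17.8 CPM in cage 2 and 709 ± 81.5 CPM in cage 1 (SD, n = 3 each), a log2 fold change of -0.64 (SE 0.11, edgeR adjusted p = 0.0081). Cd96 was at 44.8, 25.8 and 20.0 CPM in cage 2, against 62.6, 62.8 and 49.4 CPM in cage 1. This was the largest shift of the 10, a log2 fold change of -1.14 (SE 0.28, edgeR adjusted p = 0.030), and the cages did not overlap. Cd226 was at 51.0, 41.6 and 29.7 CPM in cage 2, against 87.6, 47.8 and 70.0 CPM in cage 1. Here control replicate 1 of cage 1 lay below Ythdf2 cKO replicate 2 of cage 2, and the log2 fold change was -0.95 (SE 0.20, edgeR adjusted p = 0.018).

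These calls rested on few libraries. Without Ythdf2 cKO replicate 1, and likewise without Ythdf2 cKO replicate 3, 0 of 10 receptors were called, and without control replicate 2 or control replicate 3 only Icos was. Without control replicate 1, Icos and Cd226 were called, and without Ythdf2 cKO replicate 2 the number was 5, with Ctla4 and Cd28 added. Fewer genes were called over the whole table as well, 826, 1228 and 660 without Ythdf2 cKO replicates 1, 2 and 3, and 1234, 735 and 1014 without control replicates 1, 2 and 3, against 1516 with all libraries. The log2 fold changes kept their sign in these fits, from -0.72 to -0.55 for Icos, from -1.49 to -0.81 for Cd96 and from -1.06 to -0.82 for Cd226.

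The other 7 receptors were not called, though every one of the 10 fold changes lay below 0, where 50.8% of all genes lay above it. Ctla4 averaged 1166 ± 268 CPM in cage 2 and 1555 ± 87.2 CPM in cage 1, a log2 fold change of -0.50 (SE 0.16, edgeR adjusted p = 0.077). Havcr2 averaged 51.1 ± 18.7 CPM in cage 2 and 72.5 ± 12.3 CPM in cage 1, a log2 fold change of -0.76 (SE 0.22, edgeR adjusted p = 0.061). Cd28 and Btla had log2 fold changes of -0.43 and -0.63 and did not overlap between the cages, so that 4 of 10 receptors (Cd28, Icos, Btla and Cd96) were lower without overlap, against 12.2% of all genes. Pdcd1, Lag3 and Tigit shifted least, with log2 fold changes of -0.40, -0.28 and -0.20. At an unadjusted p under 0.05 there were 7 of 10 receptors and 26.5% of all genes, and the median log2 of the 10 was -0.56, against 0.013 for all genes.

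Genes shared by all T cells and the tumour transcripts moved with the cages as well. The summed level of 9 T cell genes, among them Cd3d, Cd3e, Cd3g, Cd2 and Lck, was 2291, 2025 and 1699 CPM in cage 2, against 3107, 2878 and 3005 CPM in cage 1, without overlap. Foxp3 had a log2 fold change of -0.65 (edgeR adjusted p = 0.0091) and Cd4 one of -0.57 (edgeR adjusted p = 0.039). The melanoma sum was 2488 to 5127 CPM in cage 2 and 64.7 to 513 CPM in cage 1, and the sum of 15 macrophage and dendritic cell markers was 26.8 to 267 CPM in cage 2 and 12.4 to 57.6 CPM in cage 1. The part of these transcripts in the cage difference of the receptors was not tested.

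Set against the 9 T cell genes, nearly all calls over the whole table were higher in cage 2 (4946 of 4960), and no receptor was called. With that sum as the scaling, 0 of 10 receptors were called, where 37.7% of all genes were called and 37.5% were called higher, and 7 of the 10 log2 fold changes lay above 0, as did 90% of those of all genes. The median log2 of the receptors was 0.089, while that of all genes was 0.67. A change of scaling moves all genes by about the same amount, so it leaves the distance between these medians (-0.59, and -0.58 with TMM scaling) nearly as it was. Icos had 214, 234 and 268 reads per 1000 reads of the T cell genes in cage 2, against 258, 232 and 219 in cage 1. The cages overlapped, with a log2 fold change of 0.022 (edgeR adjusted p = 0.92). Ctla4 had 644, 506 and 588 such reads in cage 2, against 530, 537 and 490 in cage 1, a log2 fold change of 0.16 (edgeR adjusted p = 0.39). Cd96 still had the lowest value, a log2 fold change of -0.50 (edgeR adjusted p = 0.14), and Tigit the highest, 0.46 (edgeR adjusted p = 0.095). Between the genotypes this scaling left 0 of 10 receptors called, with a median log2 of 0.061.

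**Figure D4:**
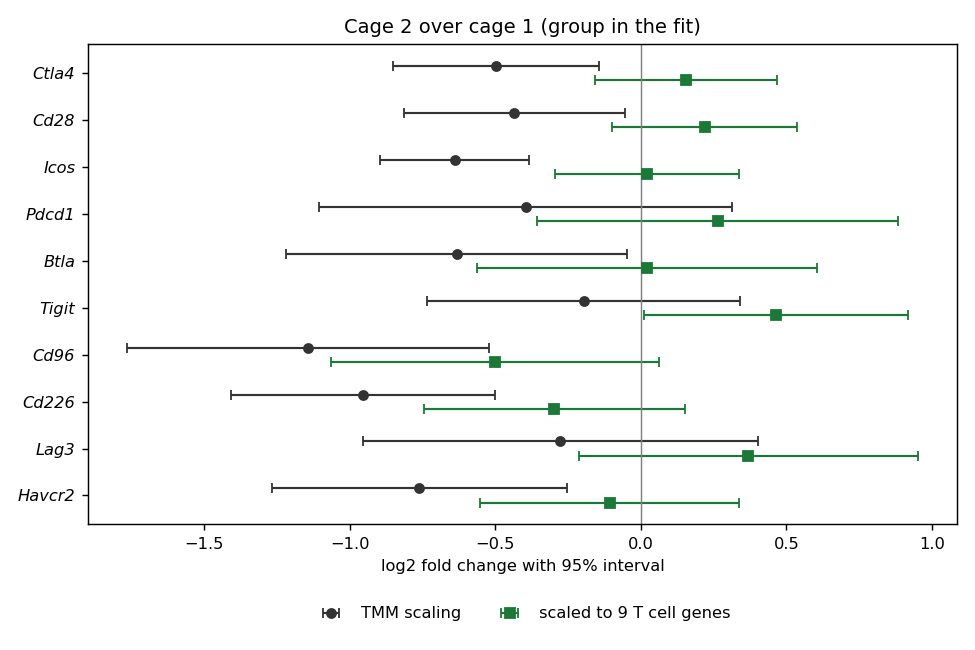
Log2 fold change of each receptor in cage 2 over cage 1, with its 95% interval, from the fit with the group as a term, scaled by TMM (circles) or to the summed reads of 9 T cell genes (squares). All 10 circles lie below 0, from -1.14 for Cd96 to -0.20 for Tigit, while 7 of the 10 squares lie above 0, where 90% of all genes do.

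**Figure D5:**
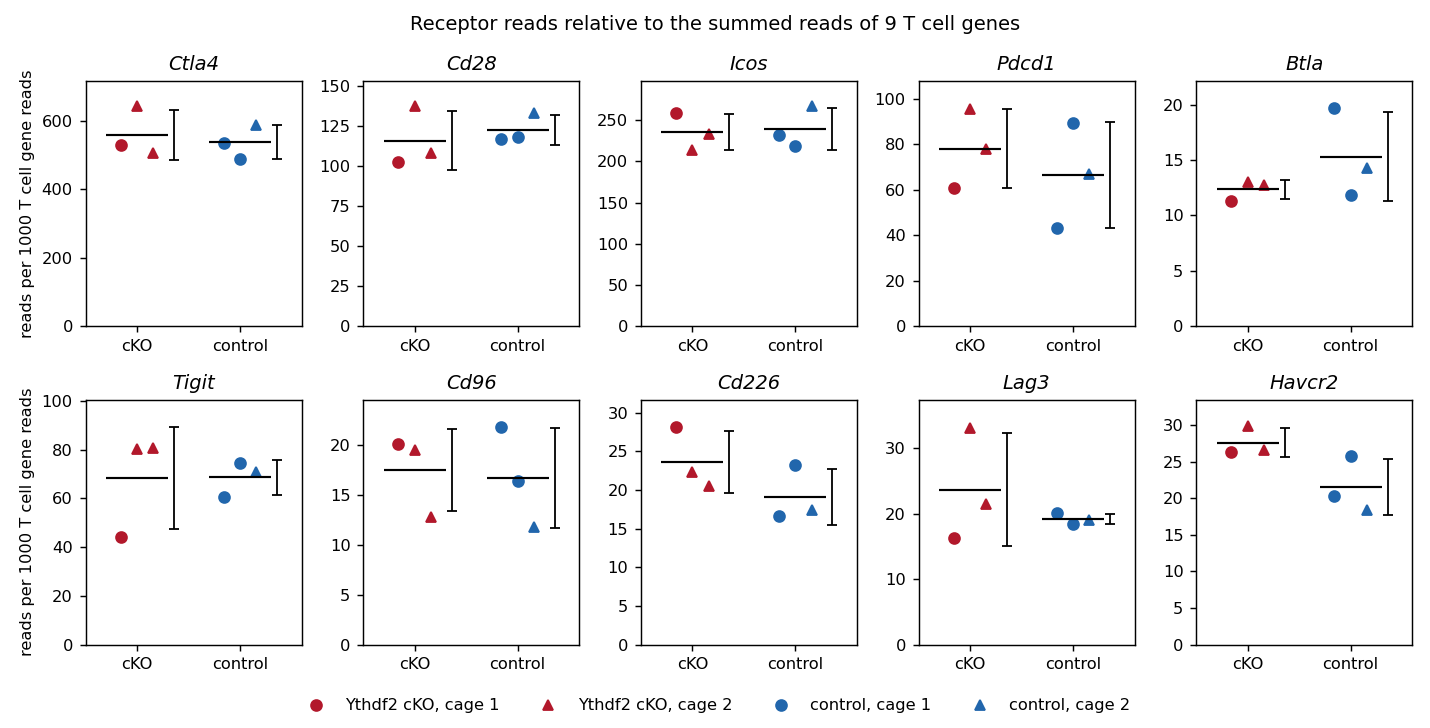
Reads of each receptor per 1000 reads of 9 T cell genes (linear axes from 0) in the libraries labelled Ythdf2 cKO (left, red) and the controls (right, blue), with circles for cage 1 and triangles for cage 2, a bar at the group mean and an error bar of 1 SD (n = 3). Ctla4 lies between 490 and 644, and the circles and triangles of Icos, apart in CPM, overlap on this scale.

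The balance between receptors that share ligands can be read within a library, where scaling cancels. The size of such a ratio still depends on the annotated exon lengths. The ratio of Ctla4 to Cd28, which compete for Cd80 and Cd86, was 13.6, 12.3 and 12.3 (RPKM over RPKM) in the cKO-labelled libraries, against 12.1, 10.9 and 11.6 in the controls. The groups did not overlap for this ratio, with a log2 difference of 0.14, but 3 libraries against 3 cannot give an exact two-sided permutation p below the 0.1 found here (0.8 after adjustment over the 8 ratios compared). The ratio of Tigit to Cd226, the inhibitory and the activating receptor of Pvr, was 8.37, 19.1 and 20.9 in the cKO-labelled libraries, against 19.4, 17.0 and 21.6 in the controls. Ythdf2 cKO replicate 1 stood alone at the low end, and the log2 difference of -0.36 gave an exact permutation p of 0.6. The other 6 ratios gave exact permutation p of 0.2 to 1 (0.8 to 1 after adjustment).

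No ligand gene, measured in the same sorted cells, passed the test between the genotypes. Of 15 ligand genes 12 were tested and 0 called, with a median log2 of 0.033. Icosl, the ligand of Icos, was at 1.97, 4.25 and 7.47 CPM in the cKO-labelled libraries, against 8.39, 7.71 and 13.6 CPM in the controls, a log2 fold change of -1.10 (SE 0.55, edgeR adjusted p = 1). Every control lay above every Ythdf2 cKO library, an arrangement without overlap that 7.62% of all genes had in either direction. Pvr, the ligand of Tigit, Cd96 and Cd226, had a log2 fold change of 0.26 and Cd80 one of 0.47. Between the cages 3 of 12 ligands were called, where 11.5% of all genes were, and all 3 were higher in cage 2: the galectin Lgals3 (1.42) and the nectins Nectin2 (4.01) and Nectin3 (5.38 on the log2 scale), named for being called. Nectin3 was at 7.14, 8.51 and 14.5 CPM in cage 2, against 0, 0.79 and 0.20 CPM in cage 1, the cages with the high and the low melanoma sums.

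Genes that act beside or downstream of the receptors were not called between the genotypes either. Of 18 proximal signalling genes 0 were called between the genotypes (median log2 -0.085). Sh2d1a, the adaptor SAP of the SLAM receptors, was the only one with an unadjusted p under 0.05, which 1.62% of all genes reached. It was at 8.35, 8.11 and 2.80 CPM in the cKO-labelled libraries, against 18.9, 14.5 and 11.5 CPM in the controls (log2 fold change -1.23, SE 0.48, edgeR adjusted p = 1). The groups did not overlap, as was so for 7.62% of all genes. Prkcq, a kinase downstream of Cd28, had a log2 fold change of -0.38, and Ptpn11, the phosphatase SHP-2 that Pdcd1 recruits, one of -0.19. Of 8 genes of Ctla4 trafficking and receptor shedding 0 were called (median -0.15), with Def6 at -0.33, the sheddase Adam10 at -0.18 and the adaptor subunit Ap2m1 at -0.15. For Ap2m1 the groups did not overlap either. The listed mRNA-binding regulators of Icos and Ctla4, Zc3h12a (Regnase-1), Rc3h1 (Roquin-1) and Rc3h2, had log2 fold changes of 0.17, 0.12 and 0.013. Of these 3 genes 0 were called.

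Among transcription factors that act on checkpoint genes, 14 of 15 were tested and 0 called between the genotypes (median log2 -0.027), where Tcf7 had -0.93, Prdm1 (Blimp-1) 0.31 and Tox2 -0.42. The Tcf7 value rested on control replicate 1, at 171 CPM, while the Ythdf2 cKO libraries were at 49.6, 59.6 and 29.4 CPM and the other controls at 56.2 and 36.1 CPM. Of 15 other co-signalling receptors 12 were tested and 0 called (median -0.082), where Slamf6 had -0.41, Pvrig 0.64 and Cd101 -0.33. Between the cages, the calls were 5 of 18 signalling genes, 2 of 8 trafficking genes, 1 of 3 mRNA-binding regulators, 3 of 14 transcription factors and 5 of 12 other co-signalling receptors, where 11.5% of all genes were called and 3.68% were called lower. All were lower in cage 2 except Akt1, a kinase downstream of Cd28, with a log2 fold change of 0.75 (edgeR adjusted p = 0.0068). The lower ones included the kinase Lck (-0.73), which is also among the 9 T cell genes, the Ctla4 trafficking gene Lrba (-0.45), whose protein keeps Ctla4 from breakdown, Trat1 (-1.22), Zc3h12a (-0.50), Maf (-0.55), Nfatc2 (-0.48), Tox (-0.81) and Cd200r1 (-1.28). These were named for being called.

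The profiles of some genes over the 6 libraries ran close to those of the 4 receptors highest per length. Likeness was the root mean square difference of centred log2 CPM, which over all other genes had a median of 0.44 for Ctla4. For Ctla4 the closest were Ppp6r1 (0.040), Ngly1 (0.059) and Lcp2 (0.060), and for Icos Spata13 (0.046), Dgka (0.048) and Foxn2 (0.048). For Tigit they were Cx3cr1 (0.043), Tjp3 (0.079) and Trafd1 (0.082). Pdcd1 had no such close match, with Snx9, Gpr55 and Rusc1 at 0.16 each and a median over all genes of 0.56. These values are a description over 6 libraries, and the depth and tumour transcripts of each library are common to all its genes.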

How the data were processed

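The deposited files are raw read counts per gene, not normalized, 1 table per library. Per the labels' protocols, a SMARTer kit for stranded total RNA was used. Per the submitters' processing notes, reads went through Trimmomatic 0.39, HISAT2 2.1.0 (mm10) and HTSeq, and DESeq2 is named too. Annotation release and strand setting of the counting: not given in the sources used here. Of 54446 identifiers 54409 matched GENCODE M21. Rows that name no gene (no feature 24.6% to 35.8% of records) stayed out.

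In R 4.3.3, edgeR 4.0.16 served for the low-count filter (filterByExpr, minimum count 10, total 15), the TMM factors and the quasi-likelihood fit. Calls use a Benjamini-Hochberg adjusted p under 0.05 over 13172 genes. The group was the only term, or stood with cage or its interaction. All 10 receptors passed the filter. Log2 CPM profiles used a prior count of 2. The fit between the genotypes was tried on simulated counts, with 200 genes altered each time. It recovered 0% at a 2-fold change, 45.5% at 4-fold and 66.5% at 8-fold, with 0, 3 and 8 false calls. No 2 libraries agreed within sampling noise. The receptors, lists and ratios were chosen with earlier results of these data known. Every receptor is named, with Ythdf2, and from each list up to 3 genes of smallest p between genotypes. Alternatives were DESeq2 1.42.0, limma-voom (limma 3.58.1), other scalings, no filter, cage or the replicate number as a term and each library left out. Leaving out Ythdf2 cKO replicate 1 together with control replicate 3 was added after the data were seen. The smallest library held 5602053 gene counts, and reads are not independent molecules.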

Additional observations from a re-analysis of the deposited data

Results flagged for a closer look

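The difference between the libraries labelled Ythdf2 cKO and the controls lay in opposite directions in the 2 cages for 3 receptors, with every Ythdf2 cKO library below every control in cage 1 and above the control in cage 2. The interaction of genotype and cage on the log2 scale was 1.06 for Tigit (SE 0.30, edgeR adjusted p = 0.24), 1.04 for Lag3 (SE 0.47, edgeR adjusted p = 0.35) and 0.58 for Btla (SE 0.47, edgeR adjusted p = 0.60). None of the 3 passed the test of the difference itself, and each rests on a single Ythdf2 cKO library in cage 1 and a single control in cage 2.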

How the results depend on the processing

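Between the genotypes 0 of 10 receptors were called under all 14 alternatives, but the sign of most small fold changes was not fixed. Icos turned with DESeq2 (0.0053), total counts (0.098) and cage as a term (0.18), Cd28 with cage as a term (0.061) and Cd96 with limma-voom (-0.091). With no filter on low counts 33 genes were called. Without both control replicate 3 and Ythdf2 cKO replicate 1, 460 genes were called, and Ctla4, Pdcd1, Cd96, Cd226 and Havcr2 turned to values below 0. In that fit the group followed the cages exactly, so the genotype and the cage cannot be told apart. With each library left out, 0 genes were called, and over these fits and that without both libraries values ran from -0.26 to 0.21 for Ctla4, -0.36 to 0.045 for Cd28, -0.45 to 0.12 for Icos, -0.054 to 0.66 for Pdcd1, -0.72 to 0.0045 for Btla, -0.27 to 0.13 for Tigit, -0.66 to 0.34 for Cd96, -0.34 to 0.62 for Cd226, -0.055 to 0.38 for Lag3 and -0.14 to 0.59 for Havcr2. The cause was not tested. Libraries numbered 1, 2 and 3 correlated between the groups at 0.41, -0.24 and 0.55. Those numbered 1 and 3 share a cage and those numbered 2 do not, so the values cannot show whether the numbers mark pairs. With the replicate number as a block 0 genes were called, 224 at an unadjusted p under 0.05, and 0 receptors.

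Between the cages 1516 genes and 3 receptors were called. The counts were 2349 and 5 with DESeq2, 2347 and 6 without the filter, and 849 and 1 with cage as the only term. Scaled to the T cell genes they were 4960 and 0, with log2 fold changes of 0.16 for Ctla4, 0.22 for Cd28, 0.022 for Icos, 0.26 for Pdcd1, 0.021 for Btla, 0.46 for Tigit and 0.37 for Lag3. With each library left out, 660 to 1234 genes and 0 to 5 receptors were called, and values ran from -0.80 to 0.013 for Pdcd1, -0.73 to 0.35 for Tigit and -0.81 to 0.25 for Lag3. Total counts as the only scaling moved the median of all genes by cage to -0.32 and that of the receptors to -0.90. The interaction gave 6 genes, with DESeq2 64, with total counts 30, without the filter 450 and with a library left out 2 to 16. It could not be fitted without control replicate 3 or Ythdf2 cKO replicate 1. The smallest counts were 127 reads of Cd96 and 154 of Btla, both in control replicate 3.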
